A study of Mus musculus with 18 samples.

Results

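The luminal lineage transcription factors described here are 10 genes, Foxa1, Gata3, Spdef, Elf3, Xbp1, Tbx3, Grhl2, Tfap2a, Tfap2b and Tfap2c, taken by symbol from the 55450 genes of the count table. Their expression was measured by RNA sequencing in 15 mammary tumors and 3 normal mammary glands of C57Bl/6 female mice, with 1 sample per mouse. This is the strain as labelled, and the paper's methods give the background of the model mice as C57Bl/6 J. B1/P/Rbf tumors (n = 5) came from Brca1fl/fl/Trp53fl/fl/TgK18GT121Tg/+ mice, B1/P tumors (n = 5) from Brca1fl/fl/Trp53fl/fl mice and P/Rbf tumors (n = 5) from Trp53fl/fl/TgK18GT121Tg/+ mice, and the normal glands (n = 3) were wild type. All tumor mice therefore carried floxed Trp53 and received an adenovirus with Cre under a CMV promoter in the mammary ducts as adults, so that any cell the virus entered could recombine. The T121 transgene is driven by the keratin 18 promoter, and its product binds the Rb family proteins pRb, p107 and p130, so that Rb inhibition depends on this promoter. The age of each mouse at collection is not given in the sources used here. The comparisons ask how the luminal factors differ when Rb inhibition is added to loss of Brca1 and Trp53 (B1/P/Rbf against B1/P), when it takes the place of Brca1 loss (P/Rbf against B1/P), when Brca1 loss is added to it (B1/P/Rbf against P/Rbf), and between each tumor group and the normal gland.

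The mammary duct has an outer basal layer and an inner luminal layer, and the luminal layer holds hormone-sensing cells and secretory progenitor cells. FOXA1 is a forkhead factor that opens chromatin for other factors, and GATA3 is a zinc finger factor needed to form and keep luminal cells; with the estrogen receptor they form the core of the hormone-sensing program. SPDEF and ELF3 are epithelial ETS factors, XBP1 is the transcription factor of the unfolded protein response, and TBX3 is a T-box transcriptional repressor needed for mammary development. GRHL2 maintains epithelial junctions, and the AP-2 factors encoded by Tfap2a, Tfap2b and Tfap2c bind as dimers to similar GC-rich sites. In human breast cancer FOXA1, GATA3, XBP1 and SPDEF are widely used as markers of luminal tumors.

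Foxa1 (ENSMUSG00000035451.7, chr12:57540628-57546916, minus strand) and Gata3 (ENSMUSG00000015619.10, chr2:9857078-9890034, minus strand) were the members whose levels followed each other most closely among tumors, and their promoters are shown because each holds a match to a motif of the families described here. Sequences of the 250 bases before the start site were taken from RefSeq on GRCm38.p6, where 7 of the 10 members had an entry, and are printed 5′ to 3′ on the strand of the gene (Foxa1 chr12:57546112-57546361, Gata3 chr2:9878601-9878850). Capitals mark the matches.
Foxa1: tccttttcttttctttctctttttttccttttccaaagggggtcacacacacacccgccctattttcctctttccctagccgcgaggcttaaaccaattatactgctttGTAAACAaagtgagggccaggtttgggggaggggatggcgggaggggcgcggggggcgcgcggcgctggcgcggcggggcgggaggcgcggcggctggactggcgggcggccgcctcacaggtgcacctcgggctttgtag
Gata3: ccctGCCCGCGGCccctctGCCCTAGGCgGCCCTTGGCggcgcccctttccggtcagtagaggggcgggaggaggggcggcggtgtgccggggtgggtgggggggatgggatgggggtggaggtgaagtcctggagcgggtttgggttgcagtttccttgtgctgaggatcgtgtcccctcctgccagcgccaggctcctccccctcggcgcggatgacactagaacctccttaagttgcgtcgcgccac
The Foxa1 match was the forkhead motif TGTTTAC on the opposite strand, 141 to 135 bases before the start site, and 3.17% of the 32851 RefSeq promoters of this length held that motif on either strand. The Gata3 promoter held 3 matches to the AP-2 motif GCCNNNGGC, which begin 246, 231 and 221 bases before the start site, and 13.7% of promoters held at least 1. The other motifs searched on both strands (GATA as AGATAA in 9.99% of promoters, grainyhead as AACCGGTT in 0.116%, T-box as AGGTGTGA in 1.12%, the unfolded protein response element as TGACGTGG in 0.563%, E2F as TTTGGCGC in 0.417%, and the longer ETS and estrogen response elements in 0.298% and 0.0639%) matched none of the 8 promoter sequences of the 7 members. A match is a description of the letters in this window and not a measured site. Tbx3, Tfap2c and Grhl2 had no entry.

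Libraries held between 27661173 and 37794889 expected counts, and levels are given as CPM, the counts of a gene relative to the library size after TMM scaling. All 10 members passed the filter on low counts, which left 19186 genes, and a gene was called at an adjusted p up to 0.05 in edgeR's quasi-likelihood test, with the Benjamini-Hochberg method over all of them. Every tumor and gland held RNA of the 6 epithelial markers (Epcam, Cdh1, Krt8, Krt18, Cldn3 and Cldn7), whose mean log2 CPM was 8.79 ± 0.39 (SD, n = 5) in B1/P/Rbf tumors, 7.45 ± 1.04 (n = 5) in B1/P tumors, 9.30 ± 0.29 (n = 5) in P/Rbf tumors and 7.30 ± 0.14 (n = 3) in normal glands. The normal glands stood apart by lymphocyte, adipocyte and skeletal muscle markers, whose mean log2 CPM ranged from 5.86 to 6.44, 9.25 to 9.86 and 11.6 to 12.6, against highest values in tumors of 1.91, 3.95 and 6.42. Among tumors, B1/P mouse 246361 had the lowest epithelial markers (5.65), B1/P mouse 248662 the highest muscle markers (6.42) and B1/P/Rbf mouse 208855 the highest adipocyte markers (3.95). Brca1, counted over the whole gene, averaged 29.8 ± 8.97 CPM for B1/P/Rbf, 15.3 ± 8.78 for B1/P, 79.0 ± 32.7 for P/Rbf and 5.45 ± 0.735 for normal glands, and Trp53 was 10.8 to 14.8 CPM on average in the tumor groups and 61.5 ± 9.16 in normal glands (SD, n = 5 per tumor group and 3 glands). Loss of Brca1 is described as partial in 1 B1/P/Rbf tumor, mouse 208863. Without this tumor, 4 of the 5 members called against B1/P kept their call, and Spdef, whose call was also lost without each of 5 other tumors, was at 2.92 (edgeR adjusted p = 0.0571).

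Addition of Rb inhibition (B1/P/Rbf against B1/P) went with more Foxa1, Gata3, Spdef and Elf3 and less Tfap2c, so that 5 of the 10 members were called, beside 16.7% of all genes tested. In P/Rbf against B1/P the same 4 genes with Xbp1, Tbx3 and Tfap2a were higher and Tfap2c again lower, 8 of 10 members against 19.2% of all genes. By direction, 4 members were called higher against 7.36% of genes and 1 lower against 9.29% in the first comparison, and 7 higher against 8.43% and 1 lower against 10.8% in the second. The median log2 fold change of the 10 members was 1.5 and 1.79, beside -0.06 and -0.05 over all genes tested. Samples of the compared groups did not overlap for 4 members in the first comparison (10.5% of genes), 3 of them higher (5.0%) and 1 lower (5.48%), and for 6 in the second (8.86%), 5 higher (3.74%) and 1 lower (5.11%). Both comparisons share the 5 B1/P tumors, so their results are not independent of each other. Without the 3 tumors that stood apart in marker lists, Spdef lost its call in both comparisons, Xbp1 and Tbx3 lost theirs in P/Rbf, and Tfap2b gained one in both. A term for 2 sets of libraries was also tried. The sets are named by no label and were inferred from fold changes of these same samples, so the term is not independent of the outcome. With it 5 members were called in B1/P/Rbf against B1/P, where Spdef (2.71, edgeR adjusted p = 0.124) lost its call and Tbx3 (3.02, 0.00248) gained one. In P/Rbf against B1/P, Foxa1 and Tfap2c were still called, and the log2 fold changes of the 6 that were not were larger than without the term for Gata3 (2.51, adjusted p = 0.0655), Spdef (4.01, 0.0895) and Xbp1 (2.18, 0.0815) and smaller for Tbx3 (0.85, 0.325), Tfap2a (1.15, 0.0809) and Elf3 (1.26, 0.0889). The number of all genes called also moved. Over the alternative fits it was 886 to 4413 in B1/P/Rbf against B1/P, beside 3195 in the fit reported here. In P/Rbf against B1/P it was 866 to 5027, beside 3684. Counts of members called in alternative fits are to be read beside these ranges. In bulk tumor RNA, fewer cells of a type and less RNA per cell cannot be told apart.

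**Figure D1:**
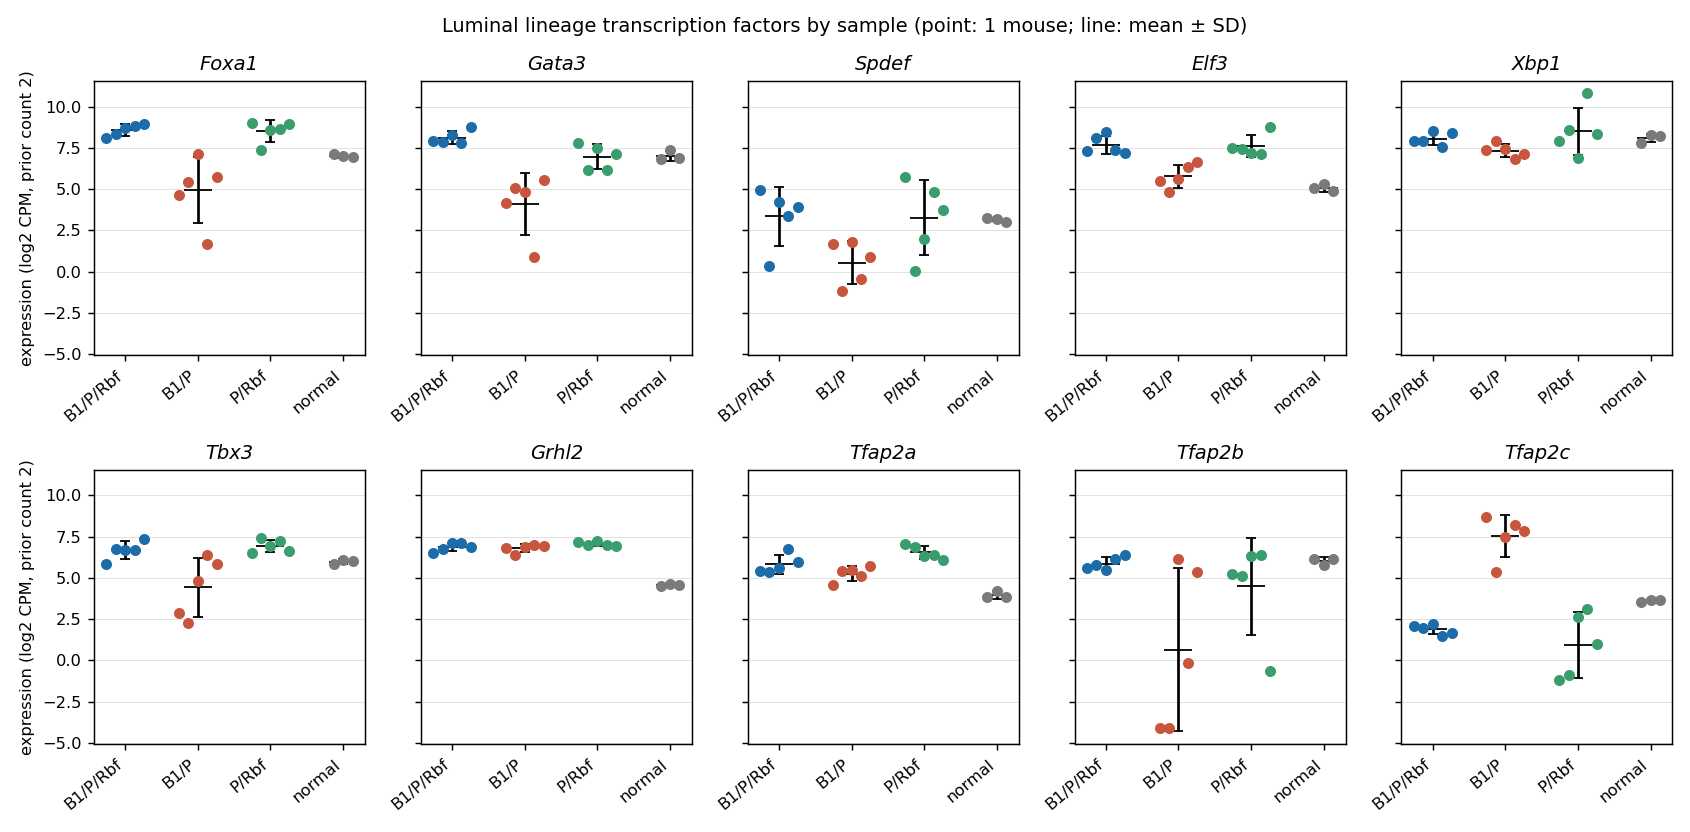
Expression of each member in every sample, as log2 CPM with a prior count of 2 (points, 1 per mouse) with the group mean ± SD (black), for the tumor groups (n = 5 each) and normal glands (n = 3). Foxa1, Gata3 and Elf3 lie lower in every B1/P tumor than in any tumor with Rb inhibition, Tfap2c lies higher, and Tfap2b is split within the B1/P tumors.

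**Figure D2:**
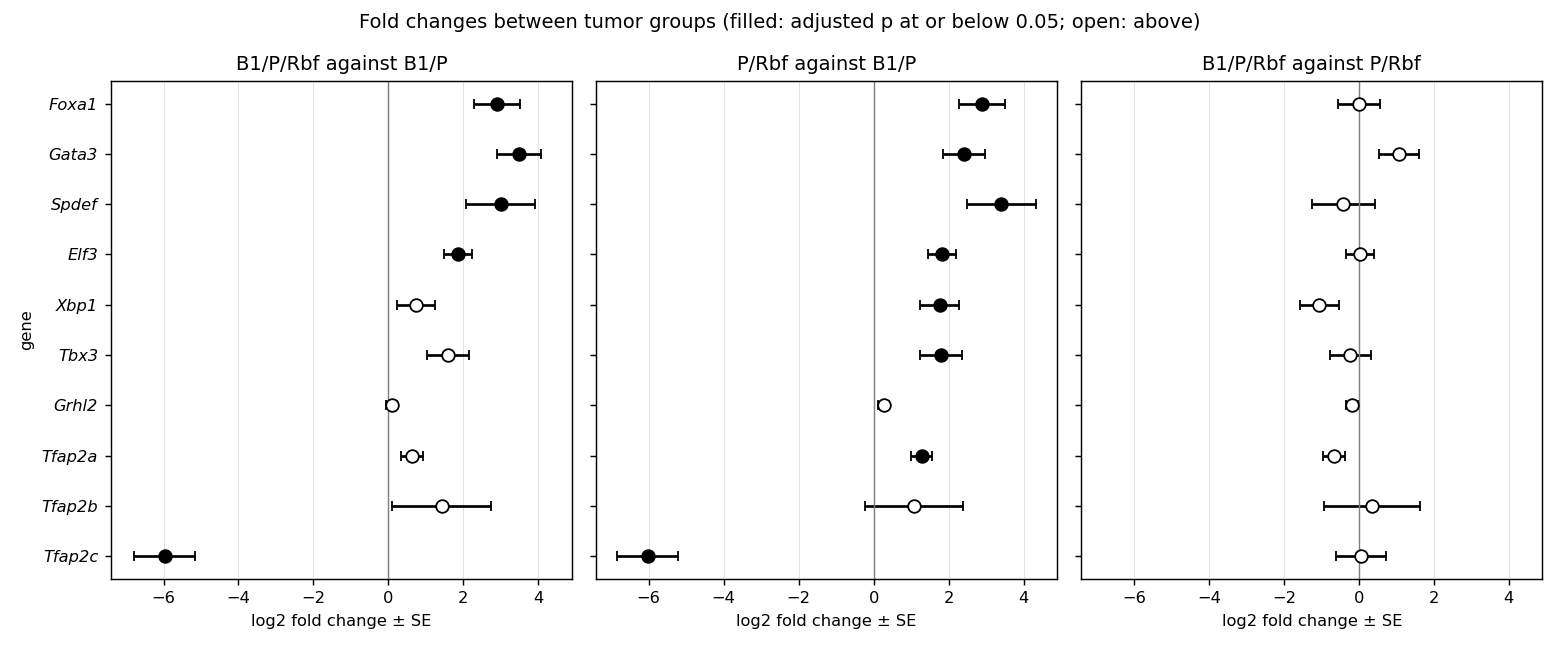
Log2 fold change ± SE of each member (edgeR) in the 3 comparisons between tumor groups. Filled circles mark an adjusted p of 0.05 or less, which 5, 8 and 0 members reached; Tfap2c is the single member to the left of 0 in both comparisons with B1/P tumors.

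Foxa1 was 273, 317, 416, 461 and 483 CPM among the 5 B1/P/Rbf tumors and 166, 381, 401, 500.0 and 503 CPM in the 5 P/Rbf tumors. In B1/P tumors it was 3.22, 25.2, 44.0, 53.9 and 137 CPM, and in normal glands 122, 127 and 139 CPM. No B1/P tumor reached the lowest tumor with Rb inhibition, and the spread within B1/P, 42.4-fold from lowest to highest, was the widest of the 4 groups. The B1/P tumor with the most Foxa1, mouse 246361, was the one with the lowest epithelial markers. The log2 fold change against B1/P was 2.89 (SE 0.61, edgeR adjusted p = 0.00445) in B1/P/Rbf and 2.89 (SE 0.61, adjusted p = 0.00441) in P/Rbf, a 7.41-fold and a 7.42-fold difference. Without mice 208855, 246361 and 248662, the 3 tumors that stood apart in marker lists, these values were 4.11 and 4.01 and remained called, a choice made after the data were seen.

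Gata3 was 218 to 437 CPM among B1/P/Rbf tumors (218, 228, 245, 313 and 437), 72.0 to 226 in P/Rbf tumors (72.0, 72.6, 138, 179 and 226), and 1.77, 18.1, 28.2, 33.6 and 46.5 CPM among B1/P tumors. The normal glands held 115, 116 and 165 CPM, above every B1/P tumor and within the range of P/Rbf tumors. The log2 fold change against B1/P was 3.49 (SE 0.58, edgeR adjusted p = 0.0012) in B1/P/Rbf tumors and 2.42 (SE 0.56, adjusted p = 0.00718) in P/Rbf tumors. Gata3 was higher in 4 of 5 B1/P/Rbf tumors than in any P/Rbf tumor, yet the difference of 1.07 (SE 0.53) was not called (adjusted p = 0.337). Mouse 255232 had the lowest Foxa1 and the lowest Gata3 of all 18 samples.

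**Figure D3:**
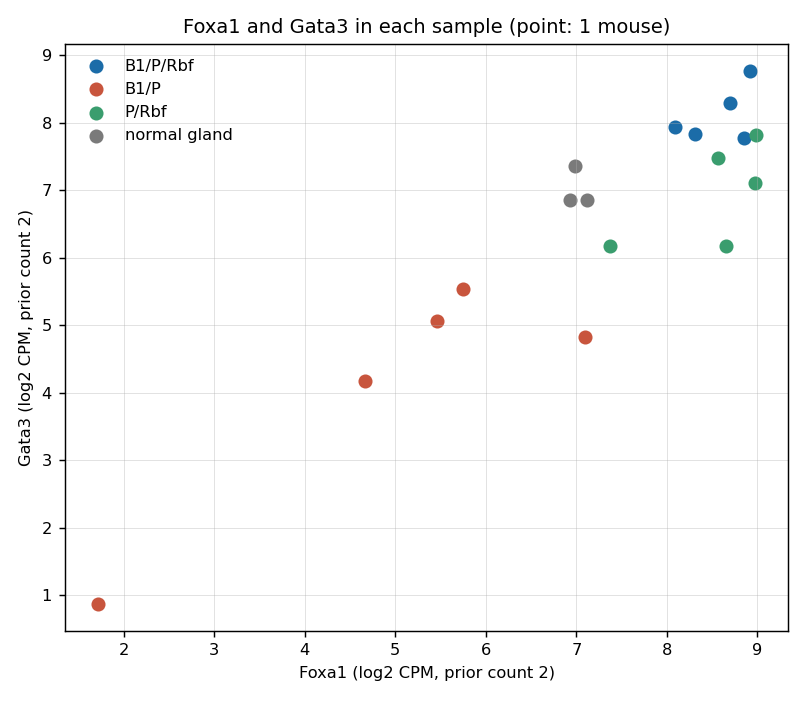
Foxa1 (x axis) and Gata3 (y axis) in each sample, both as log2 CPM with a prior count of 2, colored by group. The B1/P tumors spread along the diagonal toward the lower left, where mouse 255232 held 3.22 CPM of Foxa1 and 1.77 CPM of Gata3, and the tumors with Rb inhibition lie at the upper right.

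After the mean of each tumor group was taken off, Foxa1 and Gata3 had a Pearson r of 0.86 over the 15 tumors (permutation p = 0.0124 within groups, 0.484 adjusted over 45 pairs of members) and a Spearman rho of 0.80 (permutation p = 0.00453, 0.204 adjusted). Leaving out the 2 tumors farthest from the median of Foxa1 gave r = 0.64, and leaving out mouse 255232 alone gave 0.63. In both cases the group means taken off still included the tumors left out. The other tumors of those groups therefore kept a shared offset in both genes, which can raise r. The value with means taken anew was not computed. This was the highest r of any pair, 0 of the 45 pairs passed the adjustment (3 had an unadjusted p under 0.05), and the lowest was -0.52, for Tfap2a with Tfap2c. Among 12149 genes averaging 5 CPM or more, with the members left out, the genes most like Foxa1 by the same measure were Ercc4 (r = 0.85), Mfsd10 (0.85) and Bloc1s4 (0.84), and those most like Gata3 were Wdr1 (0.87), Snx17 (0.86) and Cdk20 (0.85), values taken from the same 15 libraries and chosen as the highest of many.

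Elf3 (ENSMUSG00000003051.13, chr1:135253575-135258568, minus strand), an epithelial ETS factor, was 147, 156, 167, 268 and 349 CPM among B1/P/Rbf tumors and 142, 146, 172, 180.0 and 428 CPM in P/Rbf tumors. The B1/P tumors held 28.7, 45.1, 48.0, 79.6 and 99.1 CPM and the normal glands 29.0, 33.4 and 40.4 CPM. No tumor of B1/P overlapped either group with Rb inhibition. Elf3 was 3.62-fold higher in B1/P/Rbf (log2 1.86, SE 0.38, edgeR adjusted p = 0.00374) and 3.55-fold higher in P/Rbf (log2 1.83, SE 0.38, adjusted p = 0.00412) than in B1/P tumors.

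Spdef (ENSMUSG00000024215.14, chr17:27714352-27728955, minus strand), which drives secretory differentiation in several epithelia, was less abundant per kb than Elf3 in every group and varied 24.9-fold among B1/P/Rbf and 54.8-fold among P/Rbf tumors. It was 1.21, 10.5, 15.1, 18.7 and 30.2 CPM among B1/P/Rbf tumors, 0.978, 3.85, 13.4, 28.5 and 53.6 CPM in P/Rbf tumors, 0.385, 0.68, 1.80, 3.12 and 3.42 CPM among B1/P tumors and 8.16, 9.10 and 9.30 CPM in normal glands. One tumor of each Rb-inhibited group, mice 208857 and 287845, fell within the B1/P range, and the other 4 of each group were above it. The log2 fold changes against B1/P were 3.00 (SE 0.92, edgeR adjusted p = 0.0333) in B1/P/Rbf and 3.41 (SE 0.93, adjusted p = 0.018) in P/Rbf. The B1/P/Rbf call did not hold without mouse 208855, 208863, 210906, 225070, 255232 or 248662, each left out alone, where the log2 fold change was 2.59 to 3.01 and the adjusted p 0.0508 to 0.0710. In limma-voom neither call held, at 3.00 (adjusted p = 0.0893) in B1/P/Rbf and 3.04 (0.0831) in P/Rbf. Spdef went most closely with Slc38a1 (r = 0.91), a glutamine transporter gene, over the 15 tumors.

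Xbp1 (ENSMUSG00000020484.18, chr11:5520659-5525893, plus strand) was the member of the secretory pathway. It was 114, 137, 164, 176 and 239 CPM in B1/P tumors, 190.0, 238, 242, 336 and 366 CPM among B1/P/Rbf tumors and 222, 291 and 304 CPM in normal glands. In P/Rbf tumors it was 120.0, 245, 319, 387 and 1766 CPM, and the highest value, of mouse 287822, was 4.56-fold the next highest of the other 17 samples. Xbp1 was called higher in P/Rbf than in B1/P (log2 fold change 1.77, SE 0.52, edgeR adjusted p = 0.0261). Without mouse 287822 the log2 fold change was 0.69 and the call was lost (adjusted p = 0.121), and it was lost as well without B1/P mouse 255232 (0.0577) or 248662 (0.0532). The call did not hold either in limma-voom (1.12, adjusted p = 0.139) or in edgeR with only the groups compared (1.77, 0.0976). In B1/P/Rbf against B1/P the difference of 0.73 (SE 0.51) was not called (adjusted p = 0.351). These gene counts do not separate the spliced from the unspliced Xbp1 mRNA, and only the spliced form encodes the active factor.

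The list of 17 XBP1 and secretory pathway genes, which holds chaperones, translocon subunits and sensors of the unfolded protein response, had 3 genes called higher and 0 lower in each comparison with B1/P tumors, with medians of 0.37 for B1/P/Rbf and 0.46 for P/Rbf. In either direction, 3 of 17 is near the 16.7% and 19.2% of all genes called. By direction, 7.36% and 8.43% of all genes were called higher, below the share of the list, and 9.29% and 10.8% lower. Dnajc3, a chaperone that restrains the kinase PERK, was higher in both (log2 1.05, adjusted p = 0.00844, and 1.48, adjusted p = 0.00121, edgeR), and its groups did not overlap. Hyou1, a chaperone of the endoplasmic reticulum, was higher in B1/P/Rbf (1.06, adjusted p = 0.023). Ern2, a sensor of the unfolded protein response in mucous epithelium, was also called there, with a B1/P/Rbf median of 0.228 CPM (0.0 to 6.16) against 0.0 in B1/P (mean 0.0169). Pdia4, a disulfide isomerase, was called in P/Rbf (2.65, adjusted p = 0.0481), where 1 tumor held 6479 CPM, while the median of P/Rbf, 175 CPM, was below the 230.0 CPM of B1/P. In mouse 287822, with the 1766 CPM of Xbp1, 1 of the 17 secretory genes (Dnajc3, 294 CPM) lay above the other 4 P/Rbf tumors, beside 22.8% of all genes tested, and the median log2 difference of the list from the median of those tumors was 0.10, beside 0.00 over all genes. Xbp1 itself differed by 2.66 on the same scale, rank 233 of 12159 genes.

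Of the 21 other tested genes within 500 kb of Xbp1, 1 was above the other 4 P/Rbf tumors in mouse 287822, beside 22.8% of all genes tested. This gene, Ccdc117, lies just beyond the 3′ end of Xbp1 on chromosome 11 and was 106 CPM against a median of 45.6 CPM. The median log2 difference of the 21 genes was -0.17, with a range from -2.34 to 1.23. Over the 15 tumors the gene most like Xbp1 was Cpeb4 (r = 0.92), which lies on chromosome 11 as Xbp1 does.

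Tbx3 (ENSMUSG00000018604.18, chr5:119670669-119684724, plus strand) was 57.9, 102, 104, 109 and 165 CPM among B1/P/Rbf tumors and 92.4, 98.4, 120.0, 149 and 170.0 CPM in P/Rbf tumors. In B1/P tumors it was 4.71, 7.31, 27.6, 57.3 and 82.4 CPM, and in normal glands 57.0, 65.7 and 68.7 CPM. The B1/P values were split, in that mice 255232 and 248662 were near or above the glands and mice 225068, 225070 and 246361 were below them. Tbx3 was higher in P/Rbf than in B1/P tumors (log2 fold change 1.81, SE 0.56, edgeR adjusted p = 0.0328), and the call did not hold without mouse 225068, 246361, 287845 or 287822, with adjusted p from 0.0558 to 0.0701. In B1/P/Rbf the difference of 1.58 (SE 0.56) was not called (adjusted p = 0.0612), while DESeq2 (adjusted p = 0.0245) and limma-voom (0.0115) called it, as did edgeR without mouse 255232 (0.0181). Mouse 255232 thus combined the lowest Foxa1 and Gata3 of the series with the highest Tbx3 of its group. The genes most like Tbx3 over the tumors were Zkscan5 (r = 0.97) and Pds5b (0.91), both on chromosome 5 with Tbx3, and Smc2 (0.93).

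The AP-2 genes differed between groups in composition. Tfap2c (ENSMUSG00000028640.11, chr2:172549593-172558622, plus strand) was 41.4, 179, 232, 288 and 418 CPM in B1/P tumors and 11.3, 12.4 and 12.5 CPM in normal glands. It was 2.74, 3.12, 3.91, 4.11 and 4.58 CPM among B1/P/Rbf tumors and 0.374, 0.473, 1.97, 6.12 and 8.69 CPM in P/Rbf tumors. Every B1/P tumor was above every gland and every gland above every tumor with Rb inhibition. The fall against B1/P was the largest difference of any member in either direction, at a log2 fold change of -5.97 (SE 0.81, edgeR adjusted p = 0.000363) in B1/P/Rbf and -6.03 (SE 0.82, adjusted p = 0.000327) in P/Rbf, that is 62.6-fold and 65.3-fold. The values ranged from -6.24 to -5.65 and from -6.68 to -5.70 when each sample was left out in turn, and both were called in every alternative fit that tested Tfap2c, which the filter at a log2 CPM of 6 removes.

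Tfap2a (ENSMUSG00000021359.16, chr13:40715302-40738376, minus strand) was 23.5, 34.0, 42.9, 44.4 and 52.5 CPM in B1/P tumors, 41.0, 42.6, 49.1, 61.3 and 109 CPM among B1/P/Rbf tumors, 66.5, 81.1, 83.6, 118 and 131 CPM in P/Rbf tumors and 14.1, 14.3 and 18.6 CPM in normal glands. All 5 P/Rbf tumors were above all B1/P tumors (log2 fold change 1.28, SE 0.29, edgeR adjusted p = 0.00645), whereas B1/P/Rbf and B1/P tumors overlapped (0.62, SE 0.29, adjusted p = 0.147). Tfap2b (ENSMUSG00000025927.13, chr1:19208914-19238576, plus strand) was present in all B1/P/Rbf tumors, at 43.7, 47.9, 54.5, 70.8 and 83.2 CPM, and in all glands, at 54.7, 71.2 and 71.4 CPM. In B1/P tumors it was 0.0, 0.0, 0.858, 40.5 and 70.3 CPM, and in P/Rbf tumors 0.579, 34.1, 37.6, 78.8 and 84.2 CPM. No tumor lay between 0.858 and 34.1 CPM, and the 4 lowest tumors had 0 counts in mice 225068 and 225070, 29 in mouse 255232 and 17 in P/Rbf mouse 290845. The 2 B1/P tumors with Tfap2b were mouse 246361, with the lowest epithelial markers, and mouse 248662, with the muscle markers. In the fit of all samples Tfap2b was not called against B1/P (1.42, SE 1.32, adjusted p = 0.49, and 1.07, SE 1.31, adjusted p = 0.592, edgeR). Without mice 208855, 246361 and 248662 the log2 fold changes were 7.75 (adjusted p = 0.00844) and 7.33 (0.00852), fitted against B1/P tumors with 0 to 29 counts, so that their size depends on the prior count. What these markers have to do with Tfap2b was not tested.

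Per kb of exon, Tfap2c made up 56.2% to 96.0% of the sum of the 3 AP-2 genes in B1/P tumors, 2.18% to 6.85% in B1/P/Rbf tumors, 0.311% to 7.22% in P/Rbf tumors and 17.9% to 21.4% in normal glands. Tfap2b was the largest part in the glands (61.4% ± 5.91, SD, n = 3), Tfap2a was in P/Rbf tumors (72.9% ± 19.0, n = 5), and in B1/P/Rbf tumors Tfap2a (52.8% ± 7.69, n = 5) and Tfap2b (42.3% ± 6.96) were near each other. The summed level was 74.5 ± 35.6 CPM per kb in B1/P tumors, 22.8 ± 7.35 in B1/P/Rbf, 27.9 ± 7.82 in P/Rbf (SD, n = 5 each) and 16.9 ± 0.91 in normal glands (n = 3). B1/P mouse 225070 had the lowest Tfap2c of its group and a summed level within the range of the B1/P/Rbf tumors, with 56.2% of it from Tfap2c.

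**Figure D4:**
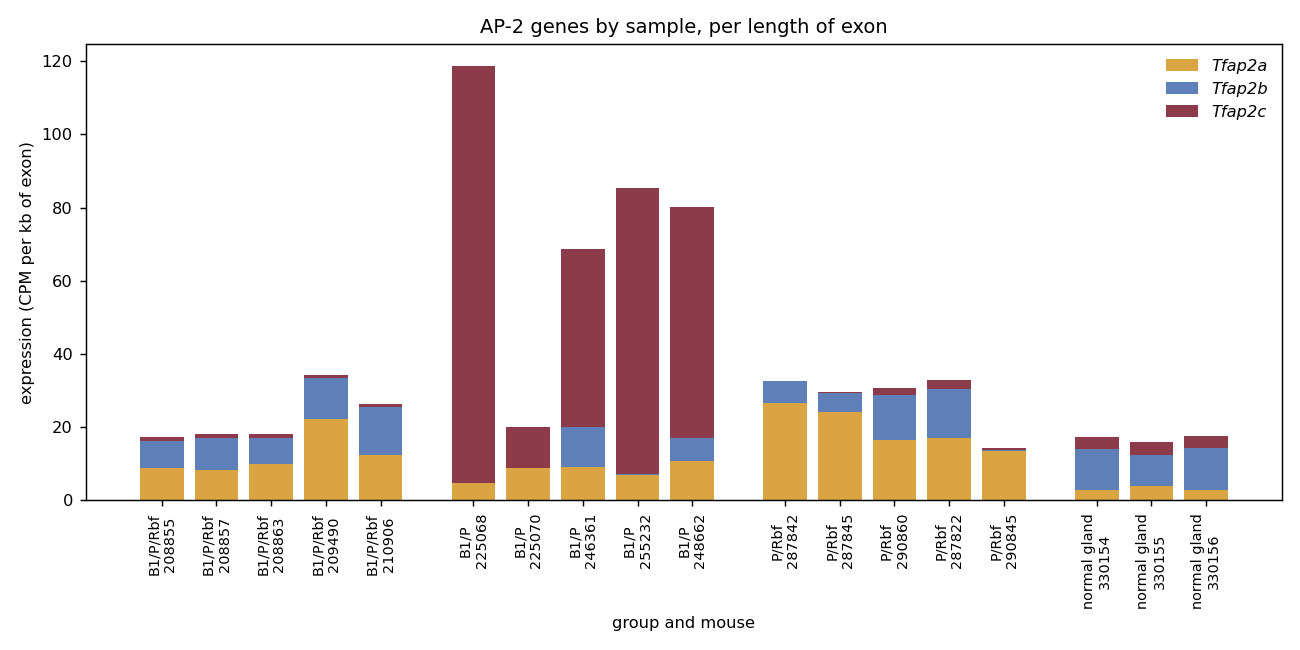
Level of Tfap2a, Tfap2b and Tfap2c in each sample, stacked, in CPM per kb of exon. Tfap2c fills 56.2% to 96.0% of each B1/P bar and at most 7.22% of any bar of a tumor with Rb inhibition, and 4 tumors (225068, 225070, 255232 and 290845) have next to no Tfap2b.

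Among 8 AP-2 partners and associated genes, none was called higher than in B1/P tumors, while 2 were lower for B1/P/Rbf (median -0.26) and 1 for P/Rbf (median -0.03). Of all genes tested, 7.36% and 8.43% were called higher and 9.29% and 10.8% lower, and the P/Rbf count is near its share. The lower genes were Kctd1 (log2 fold change -2.32, edgeR adjusted p = 0.042) and Kctd15 (-1.69, 0.0157), both repressors of AP-2 activity, in B1/P/Rbf, and Cited4 (-3.12, 0.035), a coactivator partner of AP-2, in P/Rbf. Erbb2, a receptor gene with known AP-2 sites, averaged 176 ± 41.2 CPM in B1/P/Rbf, 119 ± 13.5 in B1/P, 140.0 ± 41.7 in P/Rbf and 64.1 ± 2.52 in the glands (SD, n = 5, 5, 5 and 3), and was not called against B1/P (0.56, adjusted p = 0.0794, and 0.23, adjusted p = 0.462). Erbb3 was not called either (-0.18, adjusted p = 0.78, and -0.13, adjusted p = 0.834). Of 11 other tested genes within 500 kb of Tfap2c, 1 was called lower and 1 higher in each comparison. These counts are near the 16.7% and 19.2% of all genes called in either direction. Bmp7, which encodes a secreted BMP ligand, had medians of 170.0 CPM (B1/P), 4.49 CPM (B1/P/Rbf) and 3.03 CPM (P/Rbf), with log2 fold changes of -5.04 (adjusted p = 0.00147) and -5.38 (0.0011), and Fam210b, in the same order, of 61.7, 145 and 207 CPM (1.38, adjusted p = 0.00377, and 1.82, 0.000842). These neighbors were singled out after their values were seen.

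Grhl2 (ENSMUSG00000022286.16, chr15:37233036-37363569, plus strand) was the most even of the 10 members among tumors. It was 83.7, 110.0, 119, 120.0 and 125 CPM in B1/P tumors, 92.2, 106, 118, 136 and 140.0 CPM among B1/P/Rbf tumors and 120.0, 126, 127, 147 and 151 CPM in P/Rbf tumors, and all 15 lay above the glands at 22.7, 23.9 and 25.0 CPM. The log2 differences between tumor groups were 0.09 (SE 0.15, edgeR adjusted p = 0.729) for B1/P/Rbf against B1/P, 0.27 (SE 0.15, 0.227) for P/Rbf against B1/P and -0.18 (SE 0.15, 0.621) for B1/P/Rbf against P/Rbf. Of the 12 GRHL2 and epithelial junction genes, 3 passed the test upward for B1/P/Rbf (median 0.66, beside 7.36% of all genes) and 5 for P/Rbf (median 0.86, beside 8.43%) against B1/P tumors, and 0 passed downward (9.29% and 10.8% of all genes). They included Cdh1, the E-cadherin gene and a GRHL2 target (log2 1.67, adjusted p = 0.00181, and 1.51, 0.00322), the claudin gene Cldn4 (2.12, 0.00909, and 1.47, 0.0449) and the epithelial splicing regulator Esrp2 (1.28, 0.0225, and 1.32, 0.0178). Marveld3, a tight junction gene, was called in P/Rbf (0.95, 0.0309), while its 0.75 in B1/P/Rbf was not (0.0872). An antisense gene with an exon over Grhl2, Gm16136, held 8260 counts in all against 65800 of Grhl2, and whether the counting used the strand is not given in the sources used here. The antisense genes with exons over Gata3, Tbx3, Tfap2a and Elf3 each had at most 962 counts.

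In B1/P/Rbf against P/Rbf, 0 of the 10 members were called, beside 0.281% of all genes tested (0.219% higher and 0.0625% lower), and the samples of the groups overlapped for every member, beside 3.02% of genes whose groups did not (1.71% higher and 1.31% lower). The unadjusted p was under 0.05 for 1 member, Tfap2a (log2 fold change -0.66, SE 0.29), and limma-voom and DESeq2 also called 0 members. The number of all genes called in this comparison was 54 and unstable, at 9 to 131 with single libraries left out and 1 to 1026 over the other alternatives. It was 9 without mouse 287822, 10 without 287845, 17 without 208857, 22 without 210906, 25 and 29 without glands 330154 and 330155, 29 without 208855 and 131 without 209490. Differences ranged from -1.05 (SE 0.51, edgeR adjusted p = 0.329) for Xbp1 to 1.07 (SE 0.53, 0.337) for Gata3, and Foxa1 differed by 0.00 (SE 0.56, 1.0). With the term for 2 library sets the differences moved to -1.27 for Foxa1, -1.30 for Spdef, -1.67 for Xbp1, 1.17 for Elf3 and 2.17 for Tbx3, and none was called. The standard errors were 0.53 to 1.29 for 6 of the members. What size of difference 5 tumors a group can detect was not tested, so the absence of calls does not show that the groups are alike. The median log2 fold change of the members was -0.09, beside -0.01 over all genes.

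Against the normal gland, Tfap2a, Grhl2 and Elf3 were higher in B1/P/Rbf tumors (3 of 10 members, beside 37.0% of all genes called, 17.1% higher and 20.0% lower) and in P/Rbf tumors (3 of 10, beside 37.7% called, 17.4% higher and 20.3% lower). Tfap2a was higher by 1.95 (SE 0.36, edgeR adjusted p = 0.000438) and 2.61 (SE 0.37, 4.08e-05), Grhl2 by 2.31 (SE 0.20, 2.61e-07) and 2.49 (SE 0.20, 1.32e-07), and Elf3 by 2.67 (SE 0.48, 0.00038) and 2.64 (SE 0.48, 0.00039). In B1/P tumors 4 of 10 members were called (beside 33.8% of all genes, 16.8% higher and 16.9% lower), with Tfap2a (1.33, adjusted p = 0.00719), Grhl2 (2.22, 6.75e-07) and Tfap2c (4.26, 0.00224) higher and Gata3 lower (-2.36, 0.00613). These shares of members lie near those of all genes. Tumors and glands did not overlap for 6 members in B1/P/Rbf, 5 of them higher and 1 lower (50.5% of genes, 23.1% higher and 27.4% lower). For B1/P this held for 5 members, 3 higher and 2 lower (41.4%, 18.7% and 22.7%), and for P/Rbf for 6, 5 higher and 1 lower (46.5%, 20.0% and 26.5%). Foxa1 was above all glands in every tumor with Rb inhibition (log2 1.59, SE 0.70, adjusted p = 0.082, and 1.60, SE 0.70, 0.0807), without a call. Both differences were called with DESeq2 (0.0397 and 0.04), without TMM (0.0356 and 0.0437), with only the groups compared (0.000629 and 0.00744), without B1/P mouse 246361 (0.0426 and 0.042) or 255232 (0.0132 and 0.0128), and without the 3 tumors (0.0381 and 0.0424), and the value for B1/P/Rbf was 0.33 with the term for 2 library sets. Foxa1 in B1/P tumors was -1.30 against the gland (edgeR adjusted p = 0.127). This was called with limma-voom (-2.10, 0.0349), without B1/P mouse 246361 (-2.03, 0.0139) and without the 3 tumors (-2.42, 0.0119). Spdef was below all glands in every B1/P tumor (-2.23, edgeR adjusted p = 0.085), and this was called with DESeq2 (-2.24, 0.0448), with only the groups compared (-2.22, 0.0294) and without P/Rbf mouse 287845 (-2.23, 0.0494). Tfap2c was below all glands in the same 10 tumors (-1.71, adjusted p = 0.0835, and -1.77, 0.0728), also without a call. It was called for B1/P/Rbf with only the groups compared (0.000843) and for P/Rbf without B1/P mouse 225070 (0.0497) or P/Rbf mouse 287822 (-2.42, 0.0187). The 1.13 of Gata3 in B1/P/Rbf was called with only the groups compared (0.00935) and without B1/P mouse 255232 (0.0361), and the 0.75 of Tbx3 was 3.15 (0.00643) with the term for 2 library sets. The median log2 fold change of the members was 0.95, -0.77 and 1.12, beside 0.05, 0.12 and 0.05 over all genes. The glands hold more RNA of adipocyte, lymphocyte and muscle markers than any tumor, as given above, and their part in these differences was not tested.

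Ordered by the median level per kb of exon, Foxa1 came first in B1/P/Rbf (125 CPM per kb) and P/Rbf tumors (121), Xbp1 came first in the normal glands (89.6) and Tfap2c in B1/P tumors (63.0). In B1/P/Rbf tumors Elf3 (75.4), Xbp1 (74.5) and Gata3 (61.6) followed with overlapping ranges, and in P/Rbf tumors Xbp1 (98.3), Elf3 (77.4) and Gata3 (34.7) did, with Elf3 above Gata3 in range. In B1/P tumors Xbp1 (50.4), Elf3 (21.7), Grhl2 (13.8) and Foxa1 (13.2) came next. The range of Foxa1, from 0.969 to 41.1, crossed that of every other member, among them the first-ranked Tfap2c (11.2 to 114). Tfap2c was last in both groups with Rb inhibition, at 1.06 and 0.537 CPM per kb, and Grhl2 was last in the glands, at 2.77.

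The mean of the epithelial markers was higher in tumors with Rb inhibition than in B1/P tumors. Each member was therefore also set against it, as its log2 CPM minus the mean log2 CPM of the 6 markers. The markers did not move alike. Against B1/P, in B1/P/Rbf and P/Rbf, Cdh1 was at 1.67 and 1.51 and Cldn3 at -0.32 and 0.08. Differences on this scale, and their signs, therefore depend on the markers chosen. Whether the marker mean follows the share of epithelial cells was not tested. Of 60 differences (10 members in 6 comparisons), 0 passed the adjustment (exact two-sided permutation test, Benjamini-Hochberg) and 16 had an unadjusted p under 0.05, where the smallest p is 0.00794 for 5 against 5 samples and 0.0179 for 5 against 3. With these limits an adjusted p of 0.05 was hardly within reach over 60 tests, so the count of 0 says nothing about the members. Tfap2c reached that p in both comparisons, at -6.97 in B1/P/Rbf against B1/P and -8.43 in P/Rbf against B1/P (exact permutation p = 0.00794, 0.119 adjusted), with all 5 tumors below all 5. Gata3 reached it between the groups with Rb inhibition, where B1/P/Rbf was higher by 1.67 and all 5 tumors lay above all P/Rbf tumors. Its difference against B1/P was 2.68 in B1/P/Rbf (exact permutation p = 0.0317, 0.134 adjusted) and 1.01 in P/Rbf (p = 0.381). For Foxa1 the differences were 2.30 (exact permutation p = 0.0794) and 1.72 (p = 0.206), with B1/P mouse 246361 at 1.44, above all other samples. Elf3 differed by 0.56 (p = 0.373) and -0.02 (p = 0.976, exact permutation tests) on this scale, and Grhl2 was lower relative to the markers, by -1.25 (exact permutation p = 0.0159) and -1.57 (p = 0.00794). Xbp1 and Tfap2a, both higher in P/Rbf than in B1/P by CPM, had differences of the opposite sign relative to the markers. They were -0.61 (exact permutation p = 0.325) and -0.67 (p = 0.444) for Xbp1, and -0.77 (p = 0.286) and -0.56 (p = 0.429) for Tfap2a, in B1/P/Rbf and P/Rbf against B1/P. Against the glands, Gata3 in P/Rbf was at -2.08 (exact permutation p = 0.0179, 0.119 adjusted), beside 0.06 by CPM. In B1/P/Rbf, Xbp1 (-1.52), Tfap2b (-1.66) and Tfap2c (-3.21) had the same p. All 5 tumors lay below all glands in each of these. Grhl2 in each tumor group, Elf3 in B1/P/Rbf (1.09) and Tfap2c in B1/P (3.76) lay above all glands (exact permutation p = 0.0357).

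**Figure D5:**
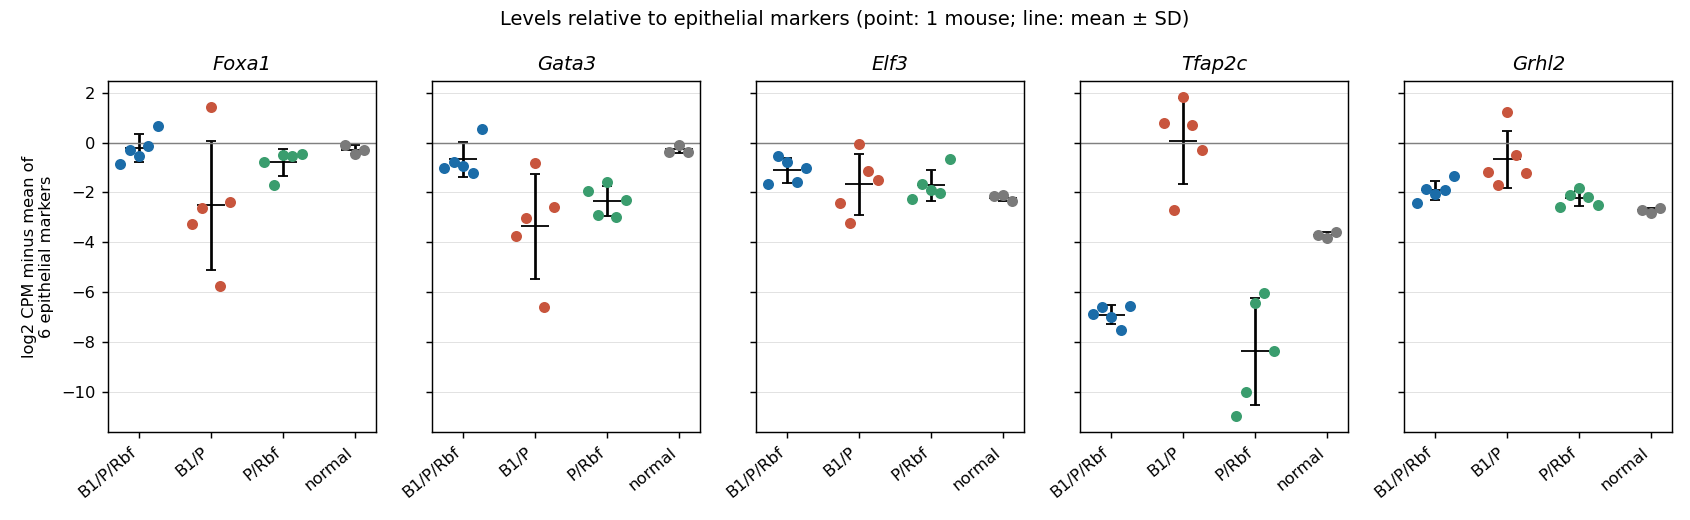
Level of 5 members relative to epithelial markers, as log2 CPM minus the mean log2 CPM of 6 markers, in each sample (points) with the group mean ± SD (black). Tfap2c lies between -2.72 and 1.83 in B1/P tumors and between -10.97 and -6.05 in tumors with Rb inhibition, and the single B1/P point of Foxa1 and Grhl2 above 0 is mouse 246361.

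Genes related to the members by family showed changes in both directions. Of 17 paralogs, 14 could be tested against B1/P tumors. In B1/P/Rbf 2 of them passed upward and 5 downward (median -1.62), beside 7.36% and 9.29% of all genes tested. In P/Rbf 4 passed upward and 5 downward (median -0.77), beside 8.43% and 10.8%. The higher paralogs were Gata2, a factor of blood-forming and other cells (4.08, edgeR adjusted p = 0.0162, in B1/P/Rbf and 3.87, 0.0186, in P/Rbf), and Elf2 (0.49, 0.0499, and 0.65, 0.0128), an ETS factor gene. Gata2 ran from 0.489 to 49.8 CPM in P/Rbf tumors, and the lowest of these was below the whole B1/P range, 0.82 to 1.72 CPM. The ETS genes Elf1 (1.14, edgeR adjusted p = 0.00164) and Elf4 (0.95, 0.0381) were called in P/Rbf and stood at 0.49 (0.102) and 0.83 (0.0691) in B1/P/Rbf. The lower paralogs included Foxc1, a forkhead gene of basal-like breast cancer, at 50.2 ± 23.2 CPM in B1/P, 2.94 ± 1.74 in B1/P/Rbf and 7.52 ± 7.90 in P/Rbf tumors (SD, n = 5 each). Foxa3, Gata4 and Tbx5 averaged at most 0.166 CPM in either group with Rb inhibition. In B1/P tumors their highest values were 31.6, 78.8 and 121 CPM and their medians 2.40, 6.37 and 0.221 CPM. Elf5, the ETS factor of luminal progenitors, was 49.7 ± 24.4 CPM in B1/P, 5.72 ± 9.14 in B1/P/Rbf and 9.72 ± 15.9 in P/Rbf tumors and was not called (-3.12, edgeR adjusted p = 0.124, and -2.35, 0.211). Ehf, also an epithelial ETS factor, was not called (-1.61, 0.0667, and 0.47, 0.588).

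Of the 16 other luminal transcription regulators, 5 passed upward and 1 downward for B1/P/Rbf against B1/P (median 0.82), and 2 upward and 1 downward for P/Rbf (median 0.52). Among all genes tested, 16.7% (7.36% higher and 9.29% lower) and 19.2% (8.43% and 10.8%) were called, and the P/Rbf count is near its share of 19.2%. Esr1, the estrogen receptor gene, averaged 10.6 ± 6.85 CPM in B1/P, 53.1 ± 29.9 in P/Rbf and 181 ± 60.5 in B1/P/Rbf tumors (SD, n = 5 each). Its log2 fold change against B1/P was 4.10 (edgeR adjusted p = 0.000303) in B1/P/Rbf and 2.33 (0.00513) in P/Rbf. Pgr, the progesterone receptor gene, was called in B1/P/Rbf (4.19, 0.0321), while its 3.01 in P/Rbf was not (0.0866). Stat5a, which relays prolactin signals, was called in both (3.05, 0.00398, and 1.95, 0.0317). The lower gene was Bcl11a, a regulator of mammary progenitors, at 111 ± 56.9 CPM in B1/P, 0.286 ± 0.286 in B1/P/Rbf, 0.153 ± 0.169 in P/Rbf and 12.4 ± 1.49 in normal glands (SD, n = 5, 5, 5 and 3), the same order of groups as Tfap2c. Of 10 tested hormone-sensing luminal genes (12 listed), 3 were higher for B1/P/Rbf (median 1.94, beside 7.36% of all genes) and 5 for P/Rbf (median 2.00, beside 8.43%), and 0 were lower (9.29% and 10.8% of all genes). Prom1, a surface marker of hormone-sensing cells, was called higher in both (4.78, 0.006, and 2.99, 0.04), as was Ly6a, the gene of Sca-1 (2.97, 0.0229, and 3.05, 0.0188). Prom1 ran from 0.748 to 225 CPM in P/Rbf tumors, and the lowest of these was below the whole B1/P range, 2.90 to 25.7 CPM. Wnt4 (2.91, 0.0175) and Tnfsf11 (4.00, 0.0466), paracrine targets of progesterone, were called in P/Rbf, with means of 146 ± 131 and 12.0 ± 17.5 CPM (SD, n = 5). The P/Rbf median of Tnfsf11 was 0.405 CPM, below the 0.567 CPM of B1/P, so that its call comes from the highest P/Rbf tumors (up to 39.4 CPM).

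Among the 6 epithelial markers, 2 were higher for B1/P/Rbf and 4 for P/Rbf against B1/P and 0 were lower, with Cdh1 as above, Krt18 at 1.68 (edgeR adjusted p = 0.0128) and 2.74 (0.000952), Krt8 at 1.22 (0.236) and 2.73 (0.0148) and Epcam at 0.66 (0.156) and 1.06 (0.0266). Cldn7 (1.16, 0.226, and 1.37, 0.137) and Cldn3 (-0.32, 0.581, and 0.08, 0.893) were called in neither comparison. Of the 8 basal and myoepithelial markers, 3 and 2 were lower and 0 higher, among them Trp63, the gene of the basal factor p63 (-3.17, 0.0358, and -2.99, 0.0408), and Oxtr (-4.50, 0.00392, and -5.65, 0.00159). The summed level of this list ranged from 47.7 to 296 CPM among B1/P/Rbf, 384 to 1915 among B1/P and 78.6 to 1221 among P/Rbf tumors. Of the 6 luminal progenitor markers 0 were called in B1/P/Rbf and 1, Kit, was lower in P/Rbf (-3.29, 0.0124). Of the 8 fibroblast markers 2 and 3 were lower, with Pdgfrb at -1.23 (0.013) and -1.45 (0.00509). Macrophage (0 and 1 of 6 lower), endothelial (0 and 0 of 6), lymphocyte (0 and 0 of 6), adipocyte (1 of 6 higher, then 1 lower) and skeletal muscle markers (4 and 5 of 6 lower) made up the rest, and mouse 248662 held the muscle list at 6.42 against at most 0.59 in the other B1/P tumors. Beside these marker counts, 7.36% and 8.43% of all genes tested were called higher and 9.29% and 10.8% lower. The part of these cell types in the levels of the luminal factors was not tested beyond the epithelial markers above.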

How the data were processed

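RNA from 15 mammary tumors and 3 normal glands was sequenced from stranded libraries. According to the submitters' processing notes and the paper's methods, reads were trimmed with cutadapt 1.18 and counted with RSEM 1.3.0. The authors deposited RSEM's expected counts for 55450 genes, without normalization or filter, and 5.61% of the values are not whole, since RSEM divides reads among genes that share them. All identifiers match GENCODE release M21 on GRCm38, used for positions, although the methods name a human build. Samples were grouped by the labelled genotype.

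Counts were rounded, scaled by TMM and filtered (filterByExpr, minimum count 10, 19186 genes kept) in R 4.3.3 with edgeR 4.0.16, and 1 quasi-likelihood fit of all 18 samples gave 6 comparisons. limma 3.58.1, DESeq2 1.42.0, no TMM, other filters, a fit of only the groups compared, a term for 2 sets of libraries (inferred from the study's own fold changes and named by no label) and leaving out samples were alternatives. The fit was also run on simulated data, whose results are not given here and support no call. log2 CPM used a prior count of 2. Marker differences used exact permutation tests, and correlations 100000 permutations within groups (Python 3.11.15, scipy 1.17.1, pandas 2.3.3). Between 27661173 and 37794889 counts per sample make counting error small beside the spread between mice, except for genes with few counts.

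The members, lists and alternatives were chosen with earlier results of these data known. All members and all epithelial markers were named. Of other lists, up to 4 genes called against B1/P by size, and set genes (Esr1, Pgr, Elf5, Ehf, Krt8, Krt18, Erbb2, Erbb3, Epcam, Cdh1, Brca1 and Trp53), were named, as were the genes most like a member; some genes that this rule names are not reported here.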

Additional observations from a re-analysis of the deposited data

Results flagged for a closer look

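Of 30 groups of 5 tumors (10 members in 3 tumor groups), 2 held a sample far from the others, where the gap to the nearest tumor divided by the range of the group was above Dixon's critical value of 0.71; chance gives about 1 such group in 20. Xbp1 was 1766 CPM in P/Rbf mouse 287822 (gap over range 0.838), and Elf3 was 428 CPM in P/Rbf mouse 290845 (0.869).

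The log2 fold changes of Gata3 and Tfap2c against the normal gland had opposite signs in B1/P tumors and tumors with Rb inhibition; those of B1/P were called and those of the groups with Rb inhibition were not in the fit of all samples (Gata3 1.13 and 0.06, Tfap2c -1.71 and -1.77), although some alternatives called Gata3 in B1/P/Rbf and Tfap2c in each. The difference itself was tested by the fits between tumor groups, since the glands cancel out. For Gata3 it was 3.49 on the log2 scale between B1/P/Rbf and B1/P and 2.42 between P/Rbf and B1/P, and for Tfap2c it was -5.97 and -6.03, all called by edgeR.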

How the results depend on the processing

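The members called in B1/P/Rbf against B1/P (5) became 3 with a filter that keeps genes of log2 CPM 6 or more in 6 samples, which tests 7 members. Those in P/Rbf against B1/P (8) became 5 in a fit of only the groups compared and 2 with a term for 2 library sets (Foxa1 and Tfap2c), which were inferred from fold changes of these samples. All genes called ranged over the alternatives from 886 to 4413 in the first comparison (3195 as reported) and from 866 to 5027 in the second (3684). Whether the members lost calls beyond the loss over all genes was not tested. Of the 6 calls lost with the term for 2 library sets, Gata3, Spdef and Xbp1 had larger log2 fold changes than without it, as the report gives. Against normal gland, a fit of only the groups compared gave 6 in place of 3 for B1/P/Rbf and 5 in place of 3 for P/Rbf. For B1/P, with 4 members called, the alternatives gave 3 to 6. All genes called against gland ranged over the alternatives from 1760 to 8780 for B1/P/Rbf (7108 as reported). They ranged from 1600 to 7566 for B1/P (6481) and from 1669 to 8125 for P/Rbf (7230). Leaving out each sample in turn gave 4 to 5, 6 to 8, 0 to 0, 3 to 5, 4 to 5 and 3 to 4 members called, first for the tumor comparisons in the order of the report and then for each tumor group against gland; the 5 for B1/P/Rbf against gland came without B1/P mouse 255232. Without the 3 tumors that stood apart in marker lists, 5, 6 and 0 members were called between tumor groups.

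Some differences that were not called changed sign. Foxa1 in B1/P/Rbf against P/Rbf was 0.18 with limma-voom, 0.09 without TMM, 0.10 with the log2 CPM filter or without the 3 tumors, and 0.00 with DESeq2, no filter or only the groups compared; with the term for 2 library sets it was -1.27. Gata3 in P/Rbf against gland was -0.22 with limma-voom and -0.35 with the log2 CPM filter. Against gland, B1/P/Rbf Xbp1 was -0.28 with that filter and -0.00 with only the groups compared, and Tfap2b was 0.25 without TMM. With the term for 2 library sets, B1/P/Rbf against gland was -0.13 for Spdef and -0.61 for Xbp1, B1/P against gland was 0.13 for Tbx3, and B1/P/Rbf against P/Rbf was 2.17 for Tbx3 and 0.06 for Grhl2. The cause of these changes was not tested. With each sample left out in turn, sign changes fell in these ranges: in B1/P/Rbf against P/Rbf, Foxa1 from -0.20 to 0.10, Spdef from -0.82 to 0.35, Xbp1 from -1.31 to 0.03, Tfap2c from -0.25 to 0.71 and Elf3 from -0.21 to 0.45; against gland, Gata3 in P/Rbf from -0.10 to 0.34, Xbp1 in B1/P/Rbf from -0.11 to 0.17 and Xbp1 in P/Rbf from -0.02 to 1.34. No paired analysis was possible because every sample came from a different mouse and the labels give no shared replicate numbers.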
